A study of Homo sapiens with 9 samples.

Results

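The comparison described here set MDA-MB-231 cells given a small RNA named Qmimic against the same cells given AllStar, a negative control RNA. Its members are the 3 arrays whose titles name Qmimic and the 3 whose titles name AllStar, 6 of the 9 arrays of the series, and the other 3 arrays came from cells given Dmimic. MDA-MB-231 is an established human line from a triple-negative breast cancer, which lacks the oestrogen and progesterone receptors and amplified HER2. In every group 600000 cells per well were reverse transfected at 10 nM with Lipofectamine 2000, and total RNA was taken after 48 h from wells titled as biological replicates 1 to 3. The RNA was labelled from an oligo(dT) primer and hybridised to HG-U133 Plus 2.0 arrays, on which each probe set reads a stretch near the 3′ end of a transcript. No group was left without transfection, so all 3 groups share the lipid and a small RNA. The p-values measure the spread between wells of 1 line, and the number of arrays limits their precision.

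A microRNA is a short RNA that guides a silencing complex to messenger RNAs, mainly through its seed, the bases near its 5′ end, and the targeted messages are repressed and degraded. A microRNA mimic is a synthetic duplex that loads the same complex. The miR-34 family is induced by p53 and is known for lowering cyclins, cyclin-dependent kinases and receptor tyrosine kinases such as MET and AXL. The series title names miR-34a and AXL, but the labels hold neither mimic's sequence and leave the letters Q and D unexplained. The mature sequences of the miR-34 family in RefSeq (build GRCh38.p14), 5′ to 3′ and with the seed (bases 2 to 8) in capitals, show what a miR-34a seed is and which relatives share it. Of 6 family members looked up, 5 were matched, and miR-34a-5p, miR-449a and miR-449b-5p share the seed GGCAGUG. In miR-34b-5p and miR-449c-5p the same letters lie 1 base further along.
hsa-miR-34a-5p: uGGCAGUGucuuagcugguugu
hsa-miR-449a: uGGCAGUGuauuguuagcuggu
hsa-miR-449b-5p: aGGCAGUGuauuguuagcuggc
hsa-miR-34b-5p: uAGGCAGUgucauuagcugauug
hsa-miR-449c-5p: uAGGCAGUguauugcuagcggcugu

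The third AllStar array differed from the rest in its signal distribution, so values are given with and without it. Its interquartile range was 2.99 on the log2 scale against 3.41 to 3.53 on the other 8, and its 18S ribosomal RNA probe sets averaged 8.73 against 5.27 to 6.26. Its probe sets read higher than those of AllStar replicates 1 and 2 at low signal, by a median of 0.21 log2 at levels of 4 to 5, and lower at high signal, by 0.42 at levels of 7 to 8. With it, the median Qmimic difference was -0.12 at levels of 4 to 5 and 0.14 at 7 to 8. Without it, the same medians were -0.04 and 0.03. The 3′ minus 5′ difference of the ACTB probe sets, a sign of RNA integrity, was 0.25, 0.27 and 0.36 on the AllStar arrays and 0.34, 0.42 and 0.36 on the Qmimic arrays, and that of GAPDH was 0.14, 0.14 and 0.26 against 0.20, 0.19 and 0.20. The groups overlapped only through AllStar replicate 3: without it every Qmimic array read higher than the AllStar arrays in both, and also on the 18S probe sets (5.82 to 6.17 against 5.27 and 5.66). These signs of RNA quality thus moved with Qmimic in the fit that gave the calls, and their part in the differences below was not tested. Of 16 genes that mark mesenchymal (basal B) breast lines, 15 read at least 6 on every array, with means of 10.8 to 10.96, against means of 5.24 to 5.67 for 12 leukocyte markers and 5.14 to 5.36 for 15 fibroblast and endothelial markers. The 17 measured markers of luminal breast epithelium lay between, with means of 7.64 to 7.84 and 12 or 13 genes at 6 or more on each array.

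**Figure D1:**
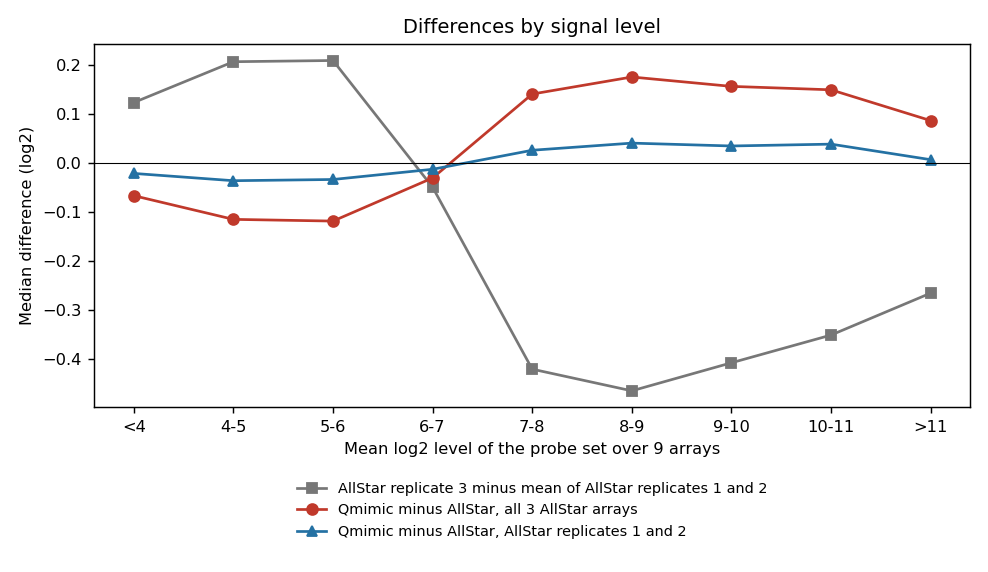
Median log2 difference (vertical axis) of probe sets grouped by their mean log2 level over 9 arrays (horizontal axis), for AllStar replicate 3 minus the mean of AllStar replicates 1 and 2 and for Qmimic minus AllStar with and without that array. The grey line drops from 0.21 at levels of 5 to 6 to -0.47 at levels of 8 to 9, the red line mirrors it between -0.12 and 0.18, and the blue line, without the array, stays between -0.04 and 0.04.

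With all 9 arrays in 1 limma model, 0 of 54613 probe sets (0%) passed an adjusted p under 0.05 and a 1.5-fold change in either direction. The smallest adjusted p was 0.111, and 8924 probe sets had an unadjusted p under 0.05. Without AllStar replicate 3 the same model called 295 probe sets (0.54%), of which 163 were higher (0.298%) and 132 lower (0.242%) with Qmimic. Below, "rose" and "fell" mean a call in this second fit, and its adjusted p-values come from limma with Benjamini-Hochberg adjustment over all probe sets. The medians of the called changes were 1.63-fold for rises and 1.64-fold for falls, and 18 rises and 14 falls were 2-fold or more. By adjusted p alone, 953 probe sets passed (1.75%). All 295 kept their sign with 9 arrays.

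On 7675 probe sets (14.1%) all 3 Qmimic arrays lay above all 3 AllStar arrays, and on 5873 (10.8%) all lay below. Each of the 163 rises was among the former, and 86 of the 132 falls were among the latter. AllStar replicate 3 read below both AllStar replicates 1 and 2 on 155 of the rises and on 126 of the falls, so adding it enlarged most of the estimated rises and shrank most of the falls. The 295 calls rest on few arrays: without AllStar replicate 1 as well they numbered 2, without AllStar replicate 2 they numbered 9, without Qmimic replicate 1 they numbered 89, without Qmimic replicate 2 they numbered 90, and without Dmimic replicate 3, which enters only through the shared spread, 486. Centring each array on its median turned the split of 163 higher and 132 lower into 234 and 118.

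The genes with the largest rises included several that build or service cilia. A primary cilium is a microtubule-based signalling projection, assembled by intraflagellar transport, in which kinesin-2 carries cargo outward and dynein-2 carries it back, while the BBSome moves membrane proteins. DYNC2LI1, a light intermediate chain of dynein-2, read 6.88, 6.62 and 5.92 (log2 level) on AllStar replicates 1 to 3 and 8.36, 8.03 and 7.80 on the Qmimic arrays. Its difference was 1.59 ± 0.27 log2 (SE, n = 3 and 3) with all arrays and 1.32 ± 0.22 without AllStar replicate 3 (2.49-fold, adjusted p = 0.0217). A second DYNC2LI1 probe set went from 5.73, 5.50 and 4.599 to 7.78, 7.31 and 6.89. On both, the lowest Qmimic array lay above the highest AllStar array.

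LZTFL1, which regulates BBSome traffic, read 7.69, 7.65 and 6.77 with AllStar and 8.85, 8.81 and 8.45 with Qmimic. The groups were apart, and LZTFL1 rose by 1.03 ± 0.15 (2.04-fold, adjusted p = 0.0155). KIF3A, a motor subunit of kinesin-2, read 6.52, 6.63 and 6.09 with AllStar and 7.19, 7.39 and 7.21 with Qmimic, and rose by 0.69 ± 0.09 (1.61-fold, adjusted p = 0.0106). Genes known from motile cilia and flagella were among the rises as well. OSCP1 read 5.61, 5.41 and 5.35 with AllStar and 7.43, 6.75 and 6.78 with Qmimic, and its rise of 1.48 ± 0.28 (2.79-fold, adjusted p = 0.0324) changed little with AllStar replicate 3 in the fit (1.53). DNAAF4, which helps assemble the dynein arms of motile cilia, read 5.39, 5.22 and 4.48 against 6.55, 6.36 and 6.19, a rise of 1.06 ± 0.22 (2.08-fold, adjusted p = 0.0481). KIF9, a kinesin of motile cilia, read 8.63, 8.62 and 8.17 against 9.51, 9.23 and 9.25, a rise of 0.70 ± 0.14 (1.63-fold, adjusted p = 0.0375). On all 3 genes the Qmimic arrays stood above every AllStar array. KIF9 rose on 1 of its 4 probe sets, which is of the x_at type, designed with possible cross-hybridisation. The other 2 KIF9 probe sets that read at least 6 had the same sign but passed no adjusted p. The dimmer 1 did not share the sign.

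Over the 66 measured genes of the list for intraflagellar transport, the BBSome and the transition zone, each represented by its brightest probe set, 3 rose (DYNC2LI1, LZTFL1 and KIF3A) and 0 fell, against 0.44% and 0.253% of all 19775 genes. The Qmimic arrays lay above all AllStar arrays for 44 of the 66 (66.7%) and below for 1, where all genes gave 19.2% and 11%. Against AllStar replicates 1 and 2 alone, 45 lay above and 4 below, and all genes gave 22.6% and 21.1%. By adjusted p alone, 8 of the list were higher and 0 lower, against 1.32% and 0.769% of all genes. The median difference of the list was 0.39 with 9 arrays and 0.25 without AllStar replicate 3, and 54 of the 66 were positive in the latter, while the medians over all genes were -0.02 and -0.01. With each gene averaged over all its probe sets, the list medians were smaller, 0.22 and 0.16, and those over all genes -0.03 and -0.01. AllStar replicate 3 read lower than the other AllStar arrays for 59 of the 66 genes, by a median of 0.43, and probe sets at levels of 7 to 8, which include the median level of the list (7.61), lay above all AllStar arrays in 28.1% of cases. Other lists leaned upward too. Above all AllStar arrays lay 29 of 53 genes of endoplasmic reticulum, Golgi and endosomal transport (54.7%). So did 20 of 38 genes of the integrated stress and unfolded protein response (52.6%) and 22 of 44 autophagy and lysosome genes (50%). Below lay 4, 1 and 1. Against AllStar replicates 1 and 2 alone, 29, 22 and 23 lay above and 8, 6 and 3 below. Among members of the transport and BBSome list short of a call, WDR19, a retrograde transport protein, had 0.82 (adjusted p = 0.0639). CLUAP1, an anterograde transport protein, had 0.58 (adjusted p = 0.0348, under 1.5-fold). The BBSome subunit TTC8 had 0.55 (adjusted p = 0.0439) and BBS12, a chaperonin for BBSome assembly, 0.62 (adjusted p = 0.0625). IFT74, a core transport subunit, had 0.76 (adjusted p = 0.0759) on its brightest probe set, while a dimmer IFT74 probe set passed with 0.67 (adjusted p = 0.0191), a gene singled out after its values were seen. The lowest members were IQCB1 at -0.27 (adjusted p = 0.0997) and ALMS1 at -0.26 (adjusted p = 0.159), a transition zone protein and a protein of the ciliary base.

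The list of 73 motile cilium and sperm flagellum genes had 3 rises (OSCP1, DNAAF4 and KIF9) and 0 falls, against 0.44% and 0.253% of all genes, yet its median was -0.03 with 9 arrays and 0.00 without AllStar replicate 3, with 20 genes above and 10 below all AllStar arrays (19.2% and 11% over all genes). Its median level was 5.65, so most of these genes read low in this line.

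The promoters of several ciliary genes carry an X-box, the element that RFX transcription factors bind. The letters GTTGCC, or GGCAAC on the other strand, which form one arm of an X-box, were searched on both strands in RefSeq promoter windows of 300 bases (250 before to 50 after a start, GRCh38.p14), a search chosen after the rises were seen. They were found in 12.2% of 35116 windows and in 14.6% of 27305 genes. Of the transport and BBSome list 25 of 60 matched genes held them (41.7%), as did 27 of 57 motile cilium genes (47.4%), 3 of 46 DNA replication genes (6.52%) and 5 of 44 mitosis genes (11.4%). Within the transport and BBSome list the median difference without AllStar replicate 3 was 0.30 in the 25 genes with a match and 0.23 in the other 35. Within the motile cilium list it was 0.00 in the 27 genes with a match and -0.03 in those without. KIF3A and LZTFL1, which rose, held no match in these windows. OSCP1 and DNAAF4, which also rose, had no window among those searched. IFT74 and KIF9 had more than 1 window each, and the IFT74 window at chr9:26947050-26947349 held no match. The IFT74 probe set that rose was dim, with a mean level of 4.85. The windows of DYNC2LI1 (chr2:43773789-43774088, plus strand), of IFT74 (chr9:26956162-26956461, plus strand) and of KIF9 (chr3:47282549-47282848, minus strand) are shown 5′ to 3′ because they hold a match, in capitals, and belong to genes with a probe set that rose.
DYNC2LI1: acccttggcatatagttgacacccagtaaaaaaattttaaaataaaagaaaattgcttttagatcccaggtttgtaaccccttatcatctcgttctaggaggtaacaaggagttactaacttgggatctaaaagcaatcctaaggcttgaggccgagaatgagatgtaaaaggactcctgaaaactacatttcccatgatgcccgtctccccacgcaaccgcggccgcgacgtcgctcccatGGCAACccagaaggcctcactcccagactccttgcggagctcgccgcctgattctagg
IFT74: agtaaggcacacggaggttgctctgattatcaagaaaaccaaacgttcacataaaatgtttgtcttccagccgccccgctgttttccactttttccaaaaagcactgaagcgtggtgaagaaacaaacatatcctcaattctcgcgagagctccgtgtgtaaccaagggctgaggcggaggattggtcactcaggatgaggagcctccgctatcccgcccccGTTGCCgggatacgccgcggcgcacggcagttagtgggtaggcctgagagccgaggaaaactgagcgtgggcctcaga
KIF9: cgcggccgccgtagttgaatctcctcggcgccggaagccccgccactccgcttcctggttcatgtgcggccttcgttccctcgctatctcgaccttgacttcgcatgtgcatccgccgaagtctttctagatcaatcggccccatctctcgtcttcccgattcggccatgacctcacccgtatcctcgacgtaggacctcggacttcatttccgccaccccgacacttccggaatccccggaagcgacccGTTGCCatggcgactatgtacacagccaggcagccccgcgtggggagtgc

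Other large rises fell in no single function. HMGA2, a chromatin protein encoded by a classic let-7 target, read 9.67, 9.72 and 9.39 with AllStar and 11.003, 10.89 and 10.75 with Qmimic, and rose by 1.19 ± 0.16 (2.28-fold, adjusted p = 0.00981). PAPPA, a protease that frees insulin-like growth factors from a binding protein, read 7.08, 7.33 and 6.32 against 8.37, 8.46 and 8.17, a rise of 1.13 ± 0.11 (2.19-fold, adjusted p = 0.00482). PLEKHA7, an adherens junction protein, read 6.87, 6.81 and 6.15 against 8.30, 8.07 and 7.74, a rise of 1.20 ± 0.22 (2.30-fold, adjusted p = 0.0283). In each of these the lowest Qmimic array was above the highest AllStar array.

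GDPD1, a phospholipase D-type lipid enzyme, read 5.56, 5.69 and 4.81 with AllStar and 7.05, 6.995 and 6.45 with Qmimic, and rose 2.31-fold (adjusted p = 0.0358). KPNA5, a nuclear import receptor, read 6.91, 7.01 and 5.87 against 7.999, 7.92 and 7.81, a rise of 0.95 ± 0.12 (1.93-fold, adjusted p = 0.00845). Both separated the groups fully. HHIP, which binds and restrains hedgehog ligands, read 6.90, 6.97 and 6.26 against 8.19, 7.97 and 7.70 and rose 2.02-fold (adjusted p = 0.0481), close to the threshold. ARRDC4, an arrestin-domain protein, moved with the third control: its difference was 1.30 ± 0.34 with AllStar replicate 3, which read 4.82 beside 6.24 and 6.30, and 0.81 ± 0.16 without it (adjusted p = 0.036). ANKRD46 and the long noncoding RNA LINC01806 rose 1.95-fold and 1.83-fold (adjusted p = 0.0432 and 0.0192). LEPROT, a small membrane protein of endosomal sorting, had 1 of 4 probe sets with a rise, of 2.15-fold (adjusted p = 0.0058).

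ERBB3, a receptor that signals through its HER family partners, read 6.14, 6.21 and 6.08 with AllStar and 7.14, 7.21 and 6.80 with Qmimic. All AllStar arrays, the third included, lay close together, and ERBB3 rose by 0.87 ± 0.14 (1.83-fold, adjusted p = 0.0202). SEC24A, a coat protein of vesicles leaving the endoplasmic reticulum, rose 1.69-fold (adjusted p = 0.00482), and SKIL, a repressor of TGF-beta signalling through SMAD proteins, rose 1.58-fold (adjusted p = 0.0462). ARID3A, a DNA-binding protein and reported let-7 target, rose 1.53-fold (adjusted p = 0.00845). SOD2, the mitochondrial superoxide dismutase, read 6.01, 5.84 and 6.30 against 6.46, 6.78 and 6.45 and rose 1.56-fold (adjusted p = 0.0309). On the ARID3A and SOD2 probe sets AllStar replicate 3 was the highest of the controls.

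**Figure D2:**
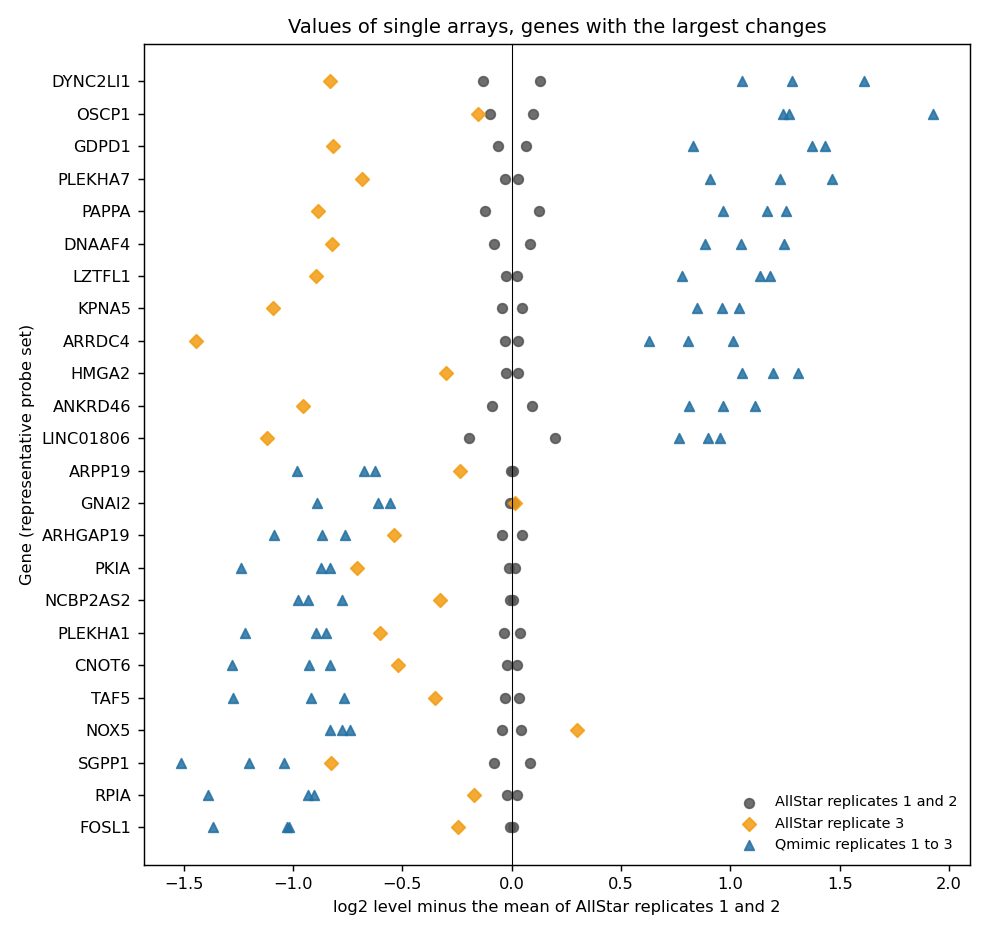
Log2 level of single arrays minus the mean of AllStar replicates 1 and 2 (horizontal axis) on the representative probe set of the top 12 rising and top 12 falling genes chosen by rule (vertical axis). Triangles are Qmimic replicates, circles AllStar replicates 1 and 2, and diamonds AllStar replicate 3, which lies to the left of the circles for most rising and most falling genes.

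Among brightest probe sets called and without overlap of the groups, ranked by the difference with 9 arrays, FOSL1, RPIA and SGPP1 fell most. Without AllStar replicate 3, falls larger than those of FOSL1 and RPIA also lay on dimmer probe sets, among them those of RRAGD (3.32-fold), CCNE2 (2.66-fold) and TPD52 (2.48-fold, adjusted p = 0.0252). FOSL1, an AP-1 subunit that is abundant in mesenchymal breast lines and a reported miR-34 target, read 11.09, 11.10 and 10.85 (log2 level) with AllStar and 9.73, 10.08 and 10.07 with Qmimic. It fell by 1.14 ± 0.15 (2.20-fold, adjusted p = 0.0109), and by 1.05 ± 0.16 with AllStar replicate 3. RPIA, the ribose 5-phosphate isomerase of the pentose phosphate pathway, read 9.17, 9.21 and 9.02 against 7.80, 8.26 and 8.29 and fell by 1.07 ± 0.17 (2.11-fold, adjusted p = 0.0197). On both the highest Qmimic array was below the lowest AllStar array.

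SGPP1, which removes the phosphate from sphingosine 1-phosphate, read 9.36, 9.19 and 8.45 with AllStar and 7.76, 8.23 and 8.07 with Qmimic. It fell by 1.25 ± 0.14 (2.38-fold, adjusted p = 0.00482), and its second probe set fell by 1.84 (adjusted p = 0.00482). Of 35 sphingolipid and phospholipid enzymes, 2 rose and 3 fell, against 0.44% and 0.253% of all genes: GDPD1 and GPCPD1, which act on glycerophosphodiesters, rose, and SGPP1, the ceramide synthase CERS5 and the acyltransferase LPGAT1 fell. CERS5 read 8.56, 8.72 and 8.56 against 7.98, 7.92 and 8.06 and fell 1.57-fold (adjusted p = 0.0312). LPGAT1 read 8.79, 8.89 and 7.66 against 7.71, 7.97 and 7.86: AllStar replicate 3 lay below every Qmimic array, and LPGAT1 fell by 0.99 ± 0.10 without that array (1.99-fold, adjusted p = 0.00482) and had -0.60 with it. The median of the list was 0.11 with 9 arrays and 0.02 without AllStar replicate 3.

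NOX5, a calcium-activated NADPH oxidase, read 8.17, 8.26 and 8.51 with AllStar and 7.38, 7.44 and 7.47 with Qmimic, and fell by 0.78 ± 0.11 (1.72-fold, adjusted p = 0.0126). CNOT6, a deadenylase that shortens the tails of messages, read 9.12, 9.08 and 8.58 against 7.82, 8.27 and 8.17 and fell 2.02-fold (adjusted p = 0.0172). DCP2, the decapping enzyme of the same decay route, rose: it read 9.44, 9.49 and 8.89 against 10.30, 10.25 and 10.21, a change of 0.79 ± 0.07 (1.73-fold, adjusted p = 0.00268). The rise was on 2 of 4 DCP2 probe sets, and the others, 1 at a level of at least 6 and 1 dimmer, did not share its sign. CNOT6 and DCP2 were the called members, 1 in each direction, among 50 genes of microRNA silencing and mRNA decay (0.44% rose and 0.253% fell over all genes), whose median was 0.16 with 9 arrays and 0.01 without AllStar replicate 3. DICER1, which cuts microRNA precursors, read 9.96, 9.59 and 9.44 against 10.39, 10.60 and 10.54, a difference of 0.74 ± 0.19 that did not pass (adjusted p = 0.084).

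GNAI2, an inhibitory G protein subunit, read 10.34, 10.32 and 10.34 with AllStar and 9.44, 9.72 and 9.77 with Qmimic. It fell by 0.69 ± 0.11 with or without AllStar replicate 3 (1.61-fold, adjusted p = 0.0204 without it). PKIA, an inhibitor of protein kinase A, fell 1.97-fold (adjusted p = 0.0363) and ARPP19, an inhibitor of the phosphatase PP2A in mitosis, fell 1.70-fold (adjusted p = 0.0401). RRAS, a RAS family GTPase, read 9.04, 8.92 and 8.61 against 8.08, 8.20 and 8.33 and fell 1.71-fold (adjusted p = 0.0144). MAP2K1, the kinase that activates ERK, read 10.37, 10.38 and 9.95 against 9.58, 9.84 and 9.87 and fell 1.53-fold (adjusted p = 0.0462). These were the 2 called members of 29 RAS and MAP kinase genes (0.253% of all genes fell), whose median was 0.17 with 9 arrays and 0.07 without AllStar replicate 3. TAF5, a TFIID subunit, fell 1.98-fold (adjusted p = 0.0426).

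Of 60 measured genes reported as miR-34 targets, 1 rose (HMGA2) and 6 fell (FOSL1, RRAS, MAP2K1, E2F5, ULBP2 and CSF1R), where 0.44% of all genes rose and 0.253% fell. The list was written from general knowledge of the family, with earlier results on these arrays known, and is not independent evidence of a direction. Its median was -0.17 with 9 arrays and -0.15 without AllStar replicate 3, 44 of the 60 were negative in the latter, and 21 lay below all AllStar arrays (35%, against 11% of all genes) while 6 lay above (10%, against 19.2%). Against AllStar replicates 1 and 2 alone, 31 lay below and 8 above, and all genes gave 21.1% and 22.6%. ULBP2, a stress ligand seen by natural killer cells, read 8.77, 8.66 and 8.52 against 7.87, 8.09 and 8.13 and fell 1.61-fold (adjusted p = 0.0168). CSF1R, a receptor tyrosine kinase of macrophages, read 6.52, 6.47 and 6.40 against 5.90, 5.90 and 5.91 and fell 1.51-fold (adjusted p = 0.0155), with no overlap of the groups. E2F5 read 8.38, 8.39 and 7.65 against 7.36, 7.64 and 7.72, so AllStar replicate 3 lay inside the Qmimic range, and fell 1.76-fold without it (adjusted p = 0.0451).

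MET, the receptor for hepatocyte growth factor and a target of the family, fell on 2 of its 4 probe sets, though its brightest one did not pass (-0.51, adjusted p = 0.095). One of the called MET probe sets, also of the x_at type, read 8.35, 8.26 and 8.21 against 7.44, 7.38 and 7.72. It fell by 0.79 ± 0.11 (1.73-fold, adjusted p = 0.0143). AXL read 12.27, 12.31 and 12.76 against 11.54, 11.85 and 11.83 on its brighter probe set, and its difference of -0.55 (adjusted p = 0.0394) was short of 1.5-fold. Its other probe set had -0.85 (adjusted p = 0.0847). Both AXL probe sets separated all 3 Qmimic from all 3 AllStar arrays, which gives an exact two-sided permutation p of 0.1, the smallest that 3 against 3 allows. CDK4 had -0.54 (adjusted p = 0.137), CDK6 -0.53 (adjusted p = 0.0128), CCND1 -0.41 (adjusted p = 0.0308) and NOTCH1 -0.36 (adjusted p = 0.0696), none of them 1.5-fold. SIRT1 had -0.26 (adjusted p = 0.329) and E2F3 -0.33 (adjusted p = 0.141), and with AllStar replicate 3 both were near 0 (-0.02 and -0.10). BCL2 was -0.21 with AllStar replicate 3, which read 7.25 beside 6.63 and 6.55, and 0.01 without it.

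Most cell cycle genes read lower with Qmimic, and most of them were under 1.5-fold or short of the adjusted p. Of 54 genes of DNA replication and the entry into S phase, 0 rose and 2 fell, where 0.253% of all genes fell. All Qmimic arrays lay below all AllStar arrays for 20 (37%, against 11% of all genes) and above for 0, and below AllStar replicates 1 and 2 for 50 (against 21.1% of all genes). Without AllStar replicate 3, 53 were negative. The list median was -0.34 with 9 arrays and -0.44 without that array. E2F2, an activator of S phase genes, read 7.39, 7.49 and 7.42 with AllStar and 6.68, 6.79 and 7.01 with Qmimic, and fell 1.53-fold (adjusted p = 0.024) on a probe set to which AllStar replicate 3 added no spread. CDC6, which loads the replicative helicase, read 8.67, 8.81 and 8.16 against 7.89, 8.16 and 8.20, overlapping the third control, and fell 1.58-fold without it (adjusted p = 0.0481). CCNE2, a cyclin of S phase entry, read 8.49, 8.43 and 7.50 against 6.87, 7.11 and 7.18 on the dimmer of its 2 probe sets and fell 2.66-fold there (adjusted p = 0.0128), while its brighter one, which stands for it in the list, had -0.85 (adjusted p = 0.0784). Helicase and nucleotide genes came close: MCM2 had -0.84 (adjusted p = 0.0575), MCM3 -0.82 (adjusted p = 0.0629), GINS3 -0.99 (adjusted p = 0.0509) and RRM2 -0.75 (adjusted p = 0.109).

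Of 52 mitosis and G2/M genes, 1 fell (ARHGAP19, a GTPase-activating protein of cell division), against 0.253% of all genes, and all 52 were negative without AllStar replicate 3. Below all AllStar arrays lay 18 (34.6%, against 11% of all genes), and below AllStar replicates 1 and 2 lay 50 (against 21.1%). ARHGAP19 read 8.61, 8.71 and 8.12 against 7.57, 7.80 and 7.90 and fell 1.87-fold (adjusted p = 0.0164). CCNA2, the cyclin of S and G2 phases, read 10.61, 10.63 and 10.24 against 9.59, 9.91 and 10.09 (-0.76, adjusted p = 0.13), and FOXM1, a transcription factor of G2 genes, had -0.62 (adjusted p = 0.256). In these genes Qmimic replicate 1 was the lowest array of the 6. In bulk RNA, fewer cells in S phase or mitosis and less message per cell cannot be told apart. CDKN1A, the p53-induced inhibitor p21, had -0.42 (adjusted p = 0.0214, under 1.5-fold). Of 27 p53 target genes 0 were called, where 0.44% of all genes rose and 0.253% fell. Above all AllStar arrays lay 12 (44.4%, against 19.2% of all genes) and below lay 1 (3.7%, against 11%). Against AllStar replicates 1 and 2 alone, 13 lay above and 5 below, and all genes gave 22.6% and 21.1%. The median of the p53 list was 0.14 without AllStar replicate 3. That median was 0.02 with each gene averaged over all its probe sets.

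Several other lists had medians further from 0 with AllStar replicate 3 than without it, and few or no calls. Over all genes 0.44% rose and 0.253% fell, so few or no calls are near that share in lists of this size. The 45 interferon response genes had 0 rises and 0 falls and a median of 0.25 with 9 arrays and 0.11 without. The 53 genes of endoplasmic reticulum, Golgi and endosomal transport had 1 rise (SEC24A), and medians of 0.23 and 0.10, and 44 autophagy and lysosome genes had 0 calls and medians of 0.21 and 0.11. The 40 ribosomal protein genes had 0 calls and medians of 0.07 and 0.01. Above all AllStar arrays lay 21 of the 45 interferon genes (46.7%), 29 of the 53 transport genes and 22 of the 44 autophagy genes. Below lay 2, 4 and 1. For the ribosomal protein genes 11 lay above (27.5%) and 0 below, and all genes gave 19.2% and 11%. Over the 43 lists, leaving out the array moved 37 medians nearer to 0 and changed the sign of 5. Averaging each gene over all its probe sets, with 9 arrays, changed the sign of 2.

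**Figure D3:**
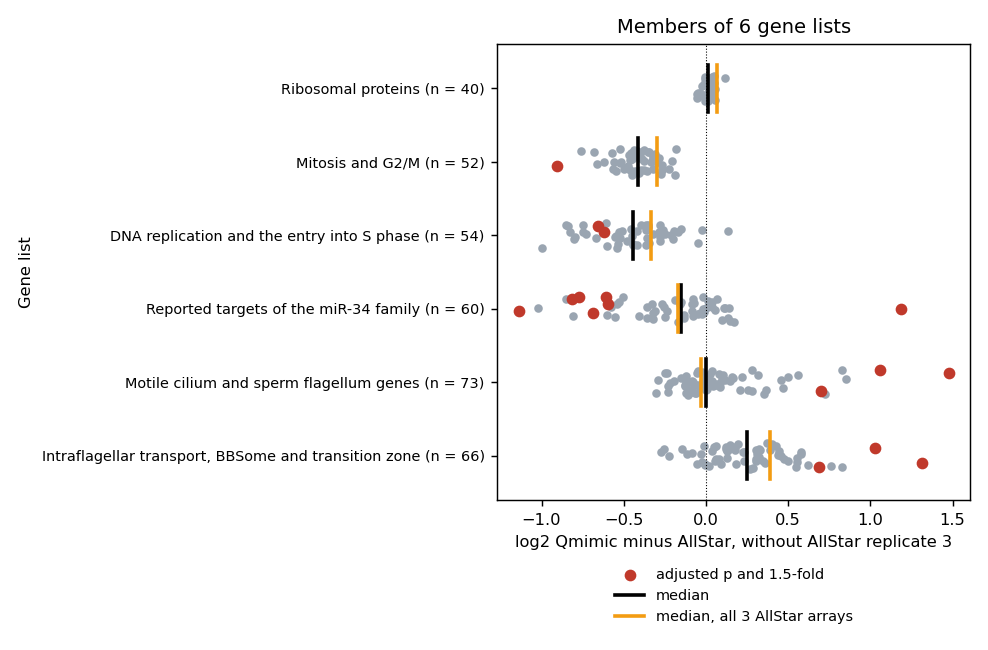
Log2 Qmimic minus AllStar without AllStar replicate 3 (horizontal axis) for each measured gene, on its representative probe set, of 6 lists (vertical axis, with the number of genes). Red points passed the adjusted p and 1.5-fold, black bars are medians and orange bars the medians with all 3 AllStar arrays. The replication and mitosis lists lie to the left (-0.44 and -0.42), the transport and BBSome list to the right (0.25), and ribosomal proteins at 0.01.

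The array measures many genes with several probe sets, and these can read different ends or isoforms of a transcript. Of 10523 genes with at least 2 probe sets, 5547 (52.7%) had all differences of 1 sign with 9 arrays. The share was 66.3% of 5207 genes when only probe sets with a mean level of at least 6 were counted, a filter that can also leave fewer per gene. Among genes with exactly 2 counted probe sets it was 67.7% of 5015, and 73.8% of 3096 at levels of at least 6. Without AllStar replicate 3 the shares were 46.1% and 61.0% over all these genes, and 61.9% and 70.1% over those with 2. Across genes, which are not independent replicates, the differences of the brightest and second probe sets had a Pearson correlation, at levels of at least 6, of 0.596 with 9 arrays and 0.665 without AllStar replicate 3.

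The 272 called probe sets that name a single gene covered 222 genes, 123 with a rise and 99 with a fall, and 0 genes had calls in both directions. Of these, 31 had a single probe set, 148 had several with 1 called, and 43 had 2 or more called (22 rises and 21 falls). All probe sets were called in 11 of them. The other probe sets of called genes that read at least 6 had the sign of the call in 232 of 268 cases (86.6%), and the dimmer ones in 107 of 170 (62.9%). In the same fit, any genes with 2 probe sets had both of 1 sign in 70.1% of cases at levels of at least 6. At any level the share was 61.9%, near that of the dimmer ones. The brightest probe set was the called one, or among those called, for 137 of the 222 genes. Probe sets whose names end in x_at, designed with possible cross-hybridisation, were called at 0.333% and those ending in s_at, shared by transcripts, at 0.62%.

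RGS4, a brake on G protein signalling, showed the fall on all of its 3 probe sets, by 0.76, 0.71 and 0.89 (adjusted p = 0.028, 0.0353 and 0.0215). The brightest of them read 7.51, 7.73 and 7.21 with AllStar and 6.66, 6.81 and 7.10 with Qmimic. SGPP1, NOX5, CNOT6, PLEKHA1, ULBP2 and PLEKHA7 had both of their probe sets called in the same direction. PAPPA rose on 4 of 11 probe sets, by 0.70 to 1.21, while the 6 lowest ranged from -0.05 to 0.22. HMGA2 rose on 1 of 9: its brightest had 1.19 and the other 8 lay between -0.39 and 0.09. ERBB3 rose on 2 of 5, by 0.87 and 1.00, and the other 3 were between -0.26 and -0.12.

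In some genes the probe sets differed. RRAGD, a Rag GTPase that links amino acids to mTORC1, read 7.11, 7.19 and 6.30 with AllStar and 5.13, 5.55 and 5.58 with Qmimic on 1 probe set, a fall of 1.73 ± 0.12 (3.32-fold, adjusted p = 0.00108). Its other, brighter probe set read 9.05, 9.07 and 8.47 against 9.26, 9.01 and 9.001, a difference of 0.03 (adjusted p = 0.909). GSK3B, a kinase of the WNT and insulin pathways, fell on 3 of 5 probe sets, by 0.82, 0.68 and 0.91, with -0.19 (adjusted p = 0.412) on another well read one and 0.08 on a dim one. RDX (radixin, which ties actin to the membrane) fell on 3 of 4, by 0.66, 0.80 and 1.03, while the fourth had 0.18. Of the 222 genes, 29 had a probe set at a level of at least 6 with the opposite sign to a called one without AllStar replicate 3. With 9 arrays 34 had one, and 20 of those 34 probe sets took the sign of the call once the array was left out. Which transcripts each of these probe sets reads was not tested.

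**Figure D4:**
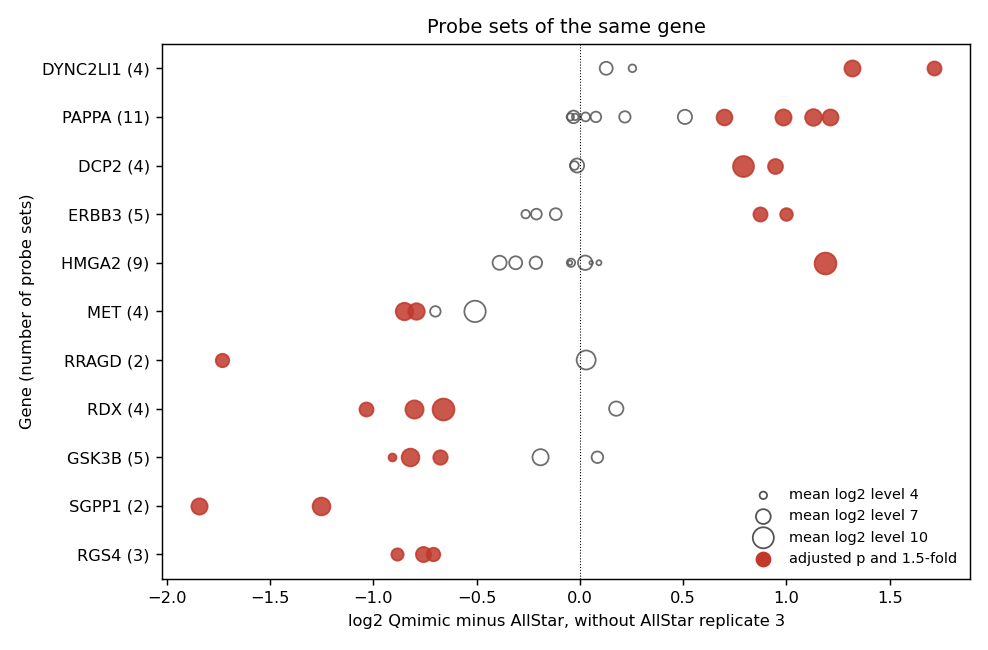
Log2 Qmimic minus AllStar without AllStar replicate 3 (horizontal axis) for every probe set of 11 genes (vertical axis, number of probe sets in brackets), with circle area growing with mean log2 level. Filled circles passed the adjusted p and 1.5-fold: RGS4 and SGPP1 are filled throughout, while RRAGD has 1 filled circle at -1.73 and a larger open one at 0.03.

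The Dmimic arrays show the same genes under the transfected RNA that the titles name Dmimic, and the labels do not say how it differs from Qmimic. The contrasts of Qmimic and of Dmimic against AllStar share the control arrays, so only each gene's own values are set side by side, and the difference between the mimics was tested itself. The size of that difference does not use AllStar. Its p-values do depend on the AllStar arrays in the fit, through the spread shared by the 3 groups. With 9 arrays 0 probe sets (0%) were called between the mimics in limma (smallest adjusted p 0.0654), and in the fit without AllStar replicate 3 44 were called (0.0806%). Of the 295 Qmimic calls, 21 also differed between the mimics. For DYNC2LI1 the difference from AllStar was 1.32 with Qmimic and 1.55 with Dmimic, for PAPPA 1.13 and 1.19, for PLEKHA7 1.20 and 1.19, for FOSL1 -1.14 and -1.12, and for SGPP1 -1.25 and -1.05, and none of these differed between the mimics in the test, which does not show that they are equal.

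MAPK9, the stress kinase JNK2, read 7.05, 7.03 and 7.03 with Qmimic, 7.93, 7.99 and 7.98 with Dmimic and 7.97, 8.08 and 7.73 with AllStar. It fell by 0.99 ± 0.06 against AllStar (1.98-fold, adjusted p = 0.00108), and the Qmimic arrays were the lowest of all 9. This was 1 of 3 MAPK9 probe sets and not the brightest: the other 2 read at least 6 and had the same sign but passed no adjusted p, 1 of them at -0.0083. DGUOK, the mitochondrial deoxyguanosine kinase, read 9.15, 9.31 and 9.29 with Qmimic, 10.03, 10.10 and 10.05 with Dmimic and 10.04, 10.03 and 9.71 with AllStar, a fall of 0.78 ± 0.07 (1.72-fold, adjusted p = 0.00346). NCBP2AS2 read 8.22, 8.27 and 8.42 with Qmimic against 9.06, 9.19 and 9.09 with Dmimic and 9.19, 9.21 and 8.87 with AllStar, and fell 1.86-fold (adjusted p = 0.0031). In each of these 3 genes the Dmimic arrays lay near AllStar replicates 1 and 2.

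CXCL8, the neutrophil chemokine interleukin 8, read 6.30, 6.35 and 6.49 with Qmimic, 7.29, 7.31 and 7.29 with Dmimic and 7.01, 7.004 and 6.73 with AllStar. The Qmimic arrays were the lowest and the Dmimic arrays the highest, and CXCL8 fell with Qmimic 1.54-fold against AllStar (adjusted p = 0.00611), a call on 1 of 2 CXCL8 probe sets. FKBP4, a cochaperone of steroid receptors, read 9.03, 9.33 and 9.30 with Qmimic, 9.88, 10.03 and 9.96 with Dmimic and 9.84, 9.89 and 9.83 with AllStar, a fall of 1.56-fold against AllStar (adjusted p = 0.0149). MAPK9, CXCL8 and FKBP4 were named after their values were seen.

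**Figure D5:**
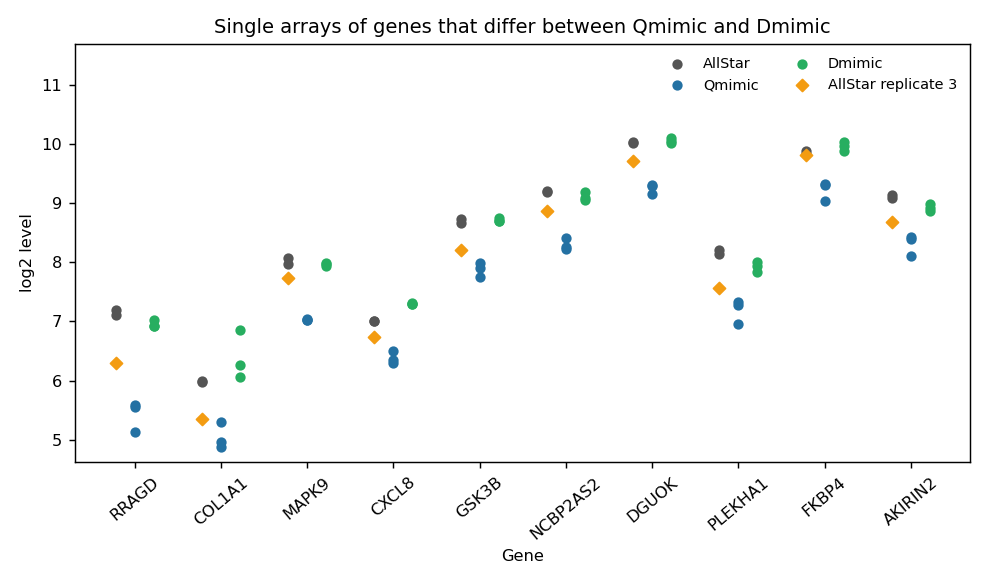
Log2 level (vertical axis) of single arrays for the 10 genes (horizontal axis), of 80 followed in the text, whose Qmimic change passed against AllStar and against Dmimic without AllStar replicate 3. Grey points are AllStar, orange diamonds AllStar replicate 3, blue points Qmimic and green points Dmimic; in each gene the 3 Qmimic arrays are below the 3 Dmimic arrays.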

How the data were processed

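RNA of 9 wells was read on 9 arrays, and the authors deposited 1 log2 value per probe set and array, made with RMA, per the labels and the submitters' processing notes, which name RMA and limma; their versions are not given in the sources used here. RMA subtracts background, equalises array distributions and summarises probes, so a degraded or rRNA-rich array can shift many genes at once.

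Of 54675 probe sets, 62 controls were set aside and 54613 tested with no filter. The platform annotation names 1 gene for 41091, several for 1801 and none for 11721, giving 19775 genes, each represented by its brightest probe set. In R 4.3.3, limma 3.58.1 (lmFit, eBayes) fitted 3 groups to 9 arrays and again without AllStar replicate 3. A call needs a Benjamini-Hochberg adjusted p under 0.05 and a 1.5-fold change. The median 95% half-width of a log2 difference was 0.26 with 9 arrays and 0.19 without AllStar replicate 3. The scripts were tested on simulated data.

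Genes were named by rule: the 12 largest rises and 12 largest falls with a called, non-overlapping representative, up to 10 per direction with several called probe sets, up to 8 with a probe set of opposite sign, up to 3 per list by p, and 10 fixed genes. Chosen after their values were seen were MAPK9, CXCL8, FKBP4, COL1A1 and the list members ALMS1, BBS12, CCNE2, CDC6, CLUAP1, E2F5, FOXM1, GINS3, GPCPD1, IFT74, IQCB1, LPGAT1, MAP2K1, MCM2, MCM3, TTC8 and WDR19. The 43 lists hold 1539 symbols. The comparison, members and lists were chosen with earlier results of these data known. Alternatives covered normalisation, array weights (estimated gene by gene), thresholds, level filter, the block and each array left out.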

Additional observations from a re-analysis of the deposited data

Results flagged for a closer look

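Of 80 genes followed in the text, 10 had a fall with Qmimic that also differed from Dmimic. This was by the test of that difference itself in limma without AllStar replicate 3. Over all probe sets, 21 of the 295 Qmimic calls also differed between the mimics. Some of the 80 genes, MAPK9, CXCL8, FKBP4 and COL1A1 among them, were chosen after their values were seen. The log2 differences, Qmimic minus Dmimic, were -1.54 for RRAGD (adjusted p = 0.000801), -1.34 for COL1A1, a fibrillar collagen chain (adjusted p = 0.0174), -0.93 for MAPK9 (adjusted p = 0.000706) and -0.92 for CXCL8 (adjusted p = 0.000801). They were -0.84 for GSK3B (adjusted p = 0.00216), -0.81 for NCBP2AS2 (adjusted p = 0.00216), -0.81 for DGUOK (adjusted p = 0.00167) and -0.74 for PLEKHA1 (adjusted p = 0.016). FKBP4 had -0.74 (adjusted p = 0.00844) and AKIRIN2, a nuclear import factor for proteasomes, -0.61 (adjusted p = 0.0223). For MAPK9 the call against AllStar was on 1 of 3 probe sets, for COL1A1 on 1 of 5 and for RRAGD and CXCL8 on 1 of 2, in each case not the brightest, and the COL1A1 probe set was dim (mean level 5.74), with 2 of the other 4 of opposite sign. With all 9 arrays the same differences had adjusted p-values of 0.0654 to 1. In all 10 the 3 Qmimic arrays lay below the 3 Dmimic arrays.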

How the results depend on the processing

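With 9 arrays the counts of higher and lower probe sets, both 0 as reported, became 27 and 36 after repeated quantile normalisation, 69 and 60 after cyclic loess and 303 and 223 with array weights, which gave AllStar replicate 3 a weight of 0.0634 and AllStar replicate 2 a weight of 3.03. Leaving out 1 array gave 0 to 163 higher and 0 to 132 lower. Of the 63, 129 and 526 calls under these 3 settings, 58, 117 and 279 were among the 295 found without AllStar replicate 3. Residuals of same-numbered AllStar and Qmimic arrays correlated at -0.0931, 0.219 and 0.194, and 2 of these 3 pairs were over the set threshold of 0.1. With so few pairs, and AllStar replicate 3 among them, these values do not decide whether the replicate numbers pair the arrays. The main fits used no block, and the replicate block gave 1 higher probe set with 9 arrays and 104 calls in place of 295. The 295 became 4 at a log2 change of at least 1.5, 953 with adjusted p alone and 480 with only the Qmimic and AllStar arrays, and 2 to 486 with 1 further array left out. The share of genes with all probe sets of 1 sign, 52.7%, was 66.3% at levels of at least 6 and 46.1% without AllStar replicate 3. Of 80 genes followed, 4 changed sign somewhere, and the cause was not tested: SIRT1 was 0.049 after median centring and -0.26 to 0.14 with 1 array left out, E2F3 was -0.33 to 0.038, BCL2 was 0.019 with array weights and -0.34 to 0.013, and RPLP2, a ribosomal protein gene whose probe set read 9.81 on AllStar replicate 3, was 0.069 with array weights and -1.97 to 0.12.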
